A study of Ovis aries with 8 samples.

Results

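The genes described here are KDR, FLT1, TEK and DLL4, which encode receptors of the vascular endothelium and a ligand that endothelial cells present to one another, measured in the fetal sheep lung. Probes were taken where the array names one of these genes, or describes a vascular endothelial growth factor (VEGF) or its receptor, an angiopoietin, the TEK kinase or delta-like 4. This gave 17 of the 15008 probes on the array, of which 13 belong to KDR, FLT1, TEK and DLL4 and the others to VEGFA and ANGPT2. They make 6 of the 860 genes with a name on the array. The match was by description for 12 probes, by gene symbol for 3 and by gene ID for 2.

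The samples were lungs of sheep twin fetuses at about day 130 of a gestation of 147 days. In each of 4 twin sets 1 fetus was infused with 0.2 mg of aldosterone, an adrenal mineralocorticoid hormone, for 48 hours, and the other received vehicle, which is the control. All fetuses had undergone surgery, and infusion began 5 days later. Each group therefore held 4 lungs from different fetuses, each lung on its own 1-colour array, and the comparison asks how these transcripts differ after a short rise in aldosterone. Values below are log2 signal less the 75th percentile of the same array, so 0 marks that percentile. A level cannot be compared between probes, because each probe has its own brightness.

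VEGFA is secreted by epithelium and other cells and binds 2 receptor kinases on endothelium, KDR (VEGFR-2), which carries most of the growth signal, and FLT1 (VEGFR-1), which also exists as a soluble form that holds ligand away from KDR. The angiopoietins act on TEK (TIE2), where ANGPT1 activates the receptor and keeps vessels quiescent and ANGPT2 mostly opposes it. DLL4 is a Notch ligand induced by VEGF signalling in tip cells, and its binding to Notch on neighbouring cells restrains sprouting. In the developing lung these routes shape the capillary bed that grows beside the air spaces.

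The array carried probes of 60 bases, and several probes of a gene could share most of their bases or none. Sequences are printed 5′ to 3′ for the DLL4 probe, for which no second probe exists, and for probes of KDR, FLT1 and TEK that differed from one another. Capitals mark bases shared with another probe of the same gene, in a run of at least 20 bases; a probe printed without capitals shares none. No other probe of the array shared a run of 20 bases with any of the 17.
DLL4 A_70_P068066: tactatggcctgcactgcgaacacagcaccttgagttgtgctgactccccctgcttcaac
KDR A_70_P026597: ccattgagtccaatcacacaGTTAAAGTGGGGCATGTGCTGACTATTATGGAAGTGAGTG
KDR A_70_P026596: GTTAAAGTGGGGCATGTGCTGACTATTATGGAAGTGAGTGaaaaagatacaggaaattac
KDR A_70_P041631: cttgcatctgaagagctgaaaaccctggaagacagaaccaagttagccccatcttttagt
FLT1 A_70_P026321: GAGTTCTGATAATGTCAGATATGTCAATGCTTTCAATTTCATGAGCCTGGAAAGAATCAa
FLT1 A_70_P026322: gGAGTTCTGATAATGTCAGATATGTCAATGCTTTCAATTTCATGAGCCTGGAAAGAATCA
FLT1 A_70_P026631: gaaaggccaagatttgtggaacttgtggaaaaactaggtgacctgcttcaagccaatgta
TEK A_70_P002712: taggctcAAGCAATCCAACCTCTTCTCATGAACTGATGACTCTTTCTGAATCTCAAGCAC
TEK A_70_P049686: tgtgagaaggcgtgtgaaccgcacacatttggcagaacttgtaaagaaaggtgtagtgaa

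Of the 17 probes, 15 exceeded background clearly on 4 or more of the 8 arrays and were tested, 11 of them probes of KDR, FLT1, TEK and DLL4. No tested probe of the array passed an adjusted p of 0.05 in limma (0 of 12170, 0.0%). An unadjusted limma p under 0.05 was found for 228 tested probes, or 1.87%, with 1.27% in the higher direction. Of the 15 probes 8 had the higher mean after aldosterone and 7 the lower, with a median difference of 0.00, and over all tested probes 51.5% were higher, with a median of 0.01. The DLL4 probe was the only one of the 15 with an unadjusted p under 0.05 and the only one whose groups did not overlap. The genes were chosen with this DLL4 difference known, so its place among the 15 is no separate support. All 4 aldosterone lungs lay above all 4 control lungs for 0.855% of the tested probes, and below them for 0.452%.

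Between 76.5% (aldosterone replicate 4) and 85.4% (control replicate 4) of the spots of an array were well above background. Both extremes thus lay in the same-numbered pair of replicate 4. No difference was detected between the groups (exact permutation test, two-sided, p = 0.371), and the arrays correlated at 0.966 to 0.989. In a lung sample, fewer endothelial cells and less RNA per endothelial cell cannot be told apart. Of the 10 endothelial markers listed, PECAM1, KDR, FLT1, TEK and TIE1 were tested, with 4 higher, 1 lower and a median difference of 0.15. KDR, FLT1 and TEK are themselves genes described here, and the others differed by 0.07 (PECAM1) and 0.15 (TIE1). The summed linear level of the 5 ranged from 8.83 to 13.4 in the aldosterone lungs and from 9.37 to 11.9 in controls. That sum is mostly PECAM1, whose log2 values, 2.95 to 3.62, lay far above those of the other markers. The 5 tested genes of dividing cells were all higher, with a median of 0.67, and 4 had an unadjusted p under 0.05, although none passed the adjusted threshold. Epithelial markers had 2 higher and 4 lower (median -0.08), mesenchymal markers 4 and 2 (0.18), leukocyte markers 2 and 2 (0.16), and red cell markers 0 and 3 (-0.72). The part of these shifts in the results below was not tested.

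The ligand VEGFA did not differ between the groups beyond the spread of its lungs. Its brighter probe read 0.92, 0.06, 0.54 and -0.02 in aldosterone replicates 1 to 4, and -0.05, 0.67, 0.81 and 0.38 in control replicates 1 to 4. The groups overlapped, and the aldosterone lung of replicate 1 was the highest of all 8. The difference was -0.07 ± 0.26 (SE, n = 4 per group; 95% interval -0.67 to 0.52), and the other VEGFA probe, which overlaps it by 59 bases, gave -0.09 ± 0.28.

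ANGPT2, the ligand that mostly opposes TEK signalling, gave a difference of 0.00 ± 0.21, with a 95% interval of -0.48 to 0.49. Its aldosterone lungs read -0.97, -1.64, -0.83 and -0.91, and its control lungs -0.82, -1.32, -0.94 and -1.29. The groups overlapped, and the aldosterone lung of replicate 2 was the lowest of the 8. The other probe described as ANGPT2 gave 0.01 ± 0.21. A further pair of tested probes, named ANGPT2 by gene but not described as an angiopoietin, gave 0.09 ± 0.22 and -0.01 ± 0.18. The signs of the pair described as ANGPT2 turned under quantile, median and other centrings.

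KDR, the main signalling receptor for VEGFA, was measured by 4 probes, and they did not point one way. A pair from a transcript described as VEGFR-2 gave -0.05 ± 0.24 and -0.08 ± 0.23, and a pair from an expressed sequence tag assigned to the KDR gene ID gave 0.18 ± 0.22 and 0.14 ± 0.27. The brightest, A_70_P041631, read -0.83, -1.83, -1.40 and -1.28 after aldosterone and -1.23, -1.61, -1.66 and -1.57 in controls. The groups overlapped, and the aldosterone lung of replicate 1 was the highest of the 8 while that of replicate 2 was the lowest. Its 95% interval ran from -0.30 to 0.67, which holds a fold from 0.81 to 1.59 (limma unadjusted p = 0.416; exact two-sided permutation p = 0.486). Within the same-numbered pairs the aldosterone lung was higher in 3 of 4, by 0.41, 0.25 and 0.29, and lower in replicate 2 by 0.22. Without aldosterone replicate 1 the difference was 0.0147, without aldosterone replicate 2 it was 0.347, and the mean over the 4 probes was 0.0475.

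The KDR probes varied together within each transcript and much less across transcripts. After group means were removed, the pair sharing 40 bases correlated at 0.95 over the 8 lungs, and the tag pair at 0.84 although it shares no run of 20 bases. Probes from different transcripts correlated at 0.27 to 0.38. The control lung of replicate 3 was high for the VEGFR-2 pair, at -3.21 for both, where the control lung of replicate 1 was at -4.12 and -4.02, while A_70_P041631 had its highest control value in that lung of replicate 1, at -1.23. All these correlations are descriptions over 8 lungs that share their arrays.

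FLT1, the receptor that binds VEGFA tightly and signals weakly, was measured by 5 dim probes. The brightest, A_70_P026631, read -4.08, -4.86, -4.57 and -5.40 after aldosterone and -4.61, -4.49, -4.37 and -4.51 in controls. The control lungs were tightly grouped, with an SD of 0.10, and the aldosterone lungs spread over both sides of them, with an SD of 0.55. The difference was -0.23 ± 0.26 (95% interval -0.81 to 0.35; exact two-sided permutation p = 0.486). Without aldosterone replicate 4 the difference was -0.0057. With all lungs it was 0.08 in the first row of the slide and -0.54 in the second, each of which held 2 lungs per group. Under normexp background correction the sign turned to 0.48, where the median of all probes shifted by 0.16.

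The other FLT1 probes were near the background of the array. A_70_P026321 and A_70_P026322 differ by a 1-base shift and share 59 bases, yet correlated at -0.38 after group means were removed. In aldosterone replicate 4 the first read -4.75, its highest, and the second -8.18, its lowest. The second had a processed signal of 4.14 there, against 44.6 for the first, and on 1 array its value was a surrogate. The first was well above background on 3 arrays and was not tested, and the second on 4, with a difference of -0.28 ± 0.43. A transcript described as the soluble form of FLT1, which acts as a decoy for VEGFA, had 2 probes; whether they also detect the full-length receptor was not tested. Of these, A_70_P026601 was above background on 0 aldosterone and 1 control array and was not tested. The other, A_70_P026602, was above background on 3 aldosterone and 4 control arrays and differed by 0.03 ± 0.29. Its values were -5.70, -6.55, -5.96 and -5.90 after aldosterone and -6.60, -6.34, -5.93 and -5.35 in controls, and the groups overlapped.

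TEK, the angiopoietin receptor, had the largest difference of the receptors at its brightest probe, and its groups overlapped. A_70_P002712 read -1.73, -2.36, -2.11 and -1.79 after aldosterone and -1.66, -2.57, -2.78 and -2.38 in controls. The control lung of replicate 1 lay above all 4 treated lungs and the other 3 controls below all of them. The difference was 0.35 ± 0.26 (95% interval -0.23 to 0.93; unadjusted p = 0.204 in limma; exact two-sided permutation p = 0.286). The aldosterone lung was higher in 3 of 4 same-numbered pairs, by 0.22, 0.67 and 0.59, and lower by 0.07 in replicate 1. With the replicate number as a block the SE was 0.16 and the unadjusted limma p 0.069, with an adjusted p of 0.878. The probe A_70_P002711, which overlaps A_70_P002712 by 53 bases, gave 0.36 ± 0.24. Its blocked fit had an SE of 0.17 and an unadjusted limma p of 0.0724. With 1 lung left out the difference of A_70_P002712 ran from 0.208, without control replicate 3, to 0.579, without control replicate 1. Without control replicate 1 the unadjusted limma p was 0.0274 for A_70_P002711 and 0.0207 for A_70_P002712, neither of which passed after adjustment. In that setting 383 of the 12170 tested probes had an unadjusted limma p under 0.05.

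The third TEK probe, A_70_P049686, had the opposite sign, and in it 1 lung stood apart. It read -4.37, -4.72, -4.29 and -4.67 after aldosterone and -4.84, -2.01, -4.95 and -4.65 in controls. The difference was -0.40 ± 0.59 with all 8 lungs and 0.305 without control replicate 2. That spot had a processed signal of 348, against 45.8 to 82.4 on the other 7 arrays, and its pixels had an SD of 193, against 19.0 to 27.7. The other TEK probes read -2.79 and -2.57 in the same lung, within their group. The mean over the 3 TEK probes was 0.105.

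DLL4 had the largest difference among the 4 genes. Its aldosterone lungs read -2.58, -2.44, -2.78 and -2.33 and its control lungs -2.86, -2.81, -3.09 and -3.22. Every treated lung was higher than every control lung, the closest being -2.78 and -2.81. The means were -2.53 (SD 0.19) and -3.00 (SD 0.19), a difference of 0.47 ± 0.16 (95% interval 0.11 to 0.82), or 1.38-fold (1.08 to 1.77). The limma unadjusted p was 0.0157 and the adjusted p over all 12170 probes was 1.0, so the difference did not pass. The exact two-sided permutation p was 0.0286, the smallest that 4 lungs against 4 allow when the pairs are left out. No permutation within the pairs was run.

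The aldosterone lung was higher for DLL4 in 4 of 4 same-numbered pairs, by 0.29, 0.37, 0.31 and 0.90. Of the tested probes, 7.67% were higher in all 4 pairs. With the replicate number as a block the unadjusted p of DLL4 in limma was 0.0178 and the adjusted p 0.878. In that fit 4.43% of the tested probes had an unadjusted p under 0.05. The pair of replicate 4 gave the largest difference, and without control replicate 4 the difference was 0.391. It was 0.33 in the first row of the slide and 0.60 in the second. Only 1 probe measures DLL4, so no other probe of the gene can be set beside it.

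**Figure D1:**
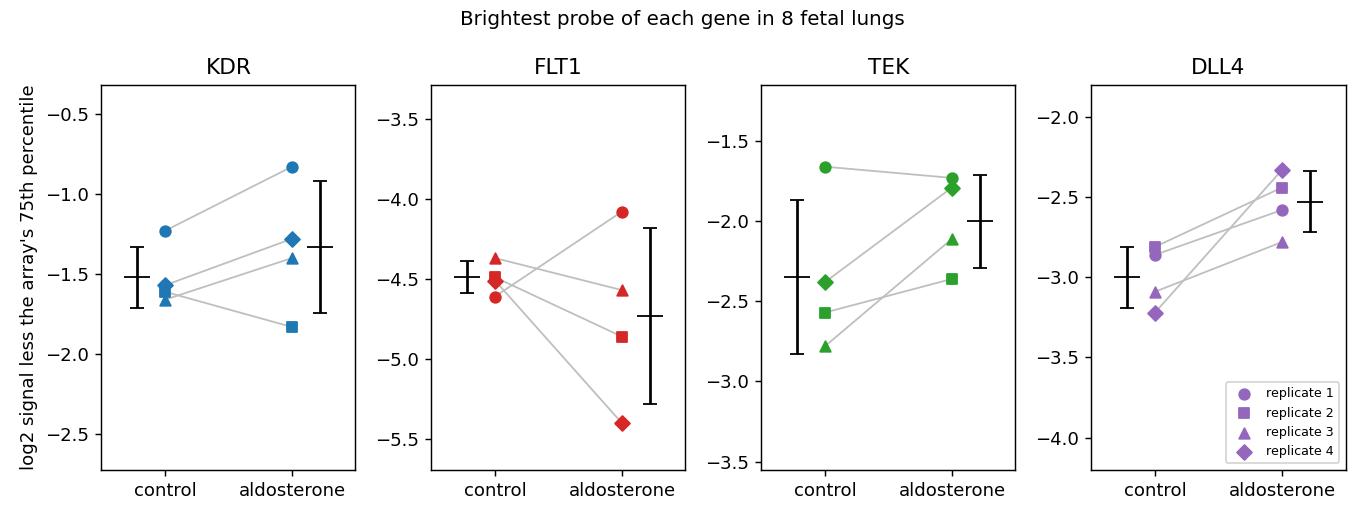
Log2 signal of the brightest probe of KDR, FLT1, TEK and DLL4 in 8 lungs, relative to the 75th percentile of the array; lines join same-numbered lungs and bars give mean and SD of each group (n = 4). Each panel has its own range of equal height. For DLL4 the aldosterone lungs, at -2.78 to -2.33, lie above the controls, at -3.22 to -2.81, and the groups of the other genes overlap.

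**Figure D2:**
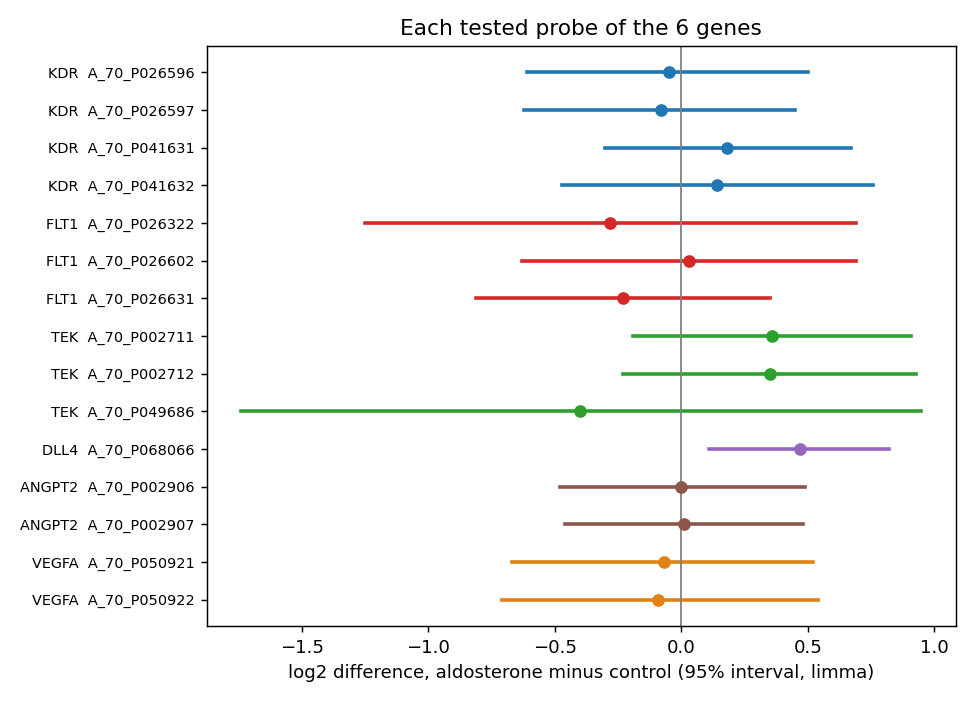
Difference in log2 signal, aldosterone minus control, for the 15 tested probes, with the 95% interval from limma (n = 4 per group). The DLL4 interval, 0.11 to 0.82, is the only one that does not include 0.

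**Figure D3:**
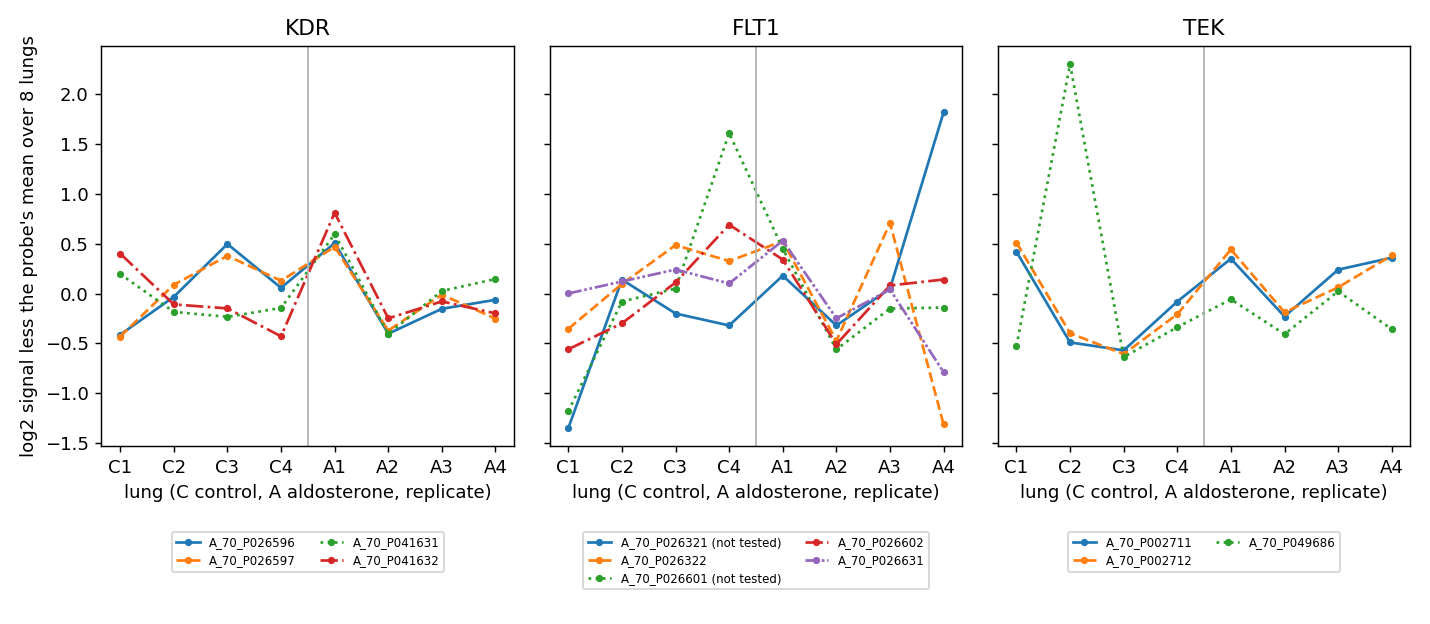
Each probe of KDR, FLT1 and TEK in the 4 control (C) and 4 aldosterone (A) lungs, less its mean over the 8. The TEK probe A_70_P049686 stands apart in control replicate 2, and the overlapping FLT1 probes A_70_P026321 and A_70_P026322 move in opposite directions in aldosterone replicate 4.

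Set against PECAM1 and TIE1, endothelial markers outside the 4 genes, DLL4 was higher by 0.36 after aldosterone, at -3.89 to -3.51 against -4.30 to -3.91 (exact two-sided permutation p = 0.0286). The groups did not overlap on this scale either, with -3.89 and -3.91 the nearest values. How many of all tested probes separate on this scale was not counted. Limma on the same centring gave DLL4 an unadjusted p of 0.0706, and none of the 15 probes was under 0.05. Of all tested probes, 29 were higher and 156 lower at an unadjusted limma p under 0.05 on this centring. TIE1 itself had a control lung, replicate 4, at -2.03, apart from the other controls at -0.99 to -0.85. On that scale TEK differed by 0.24, KDR by 0.07 and FLT1 by -0.34, each with overlapping groups. This scale was chosen after the data were seen.

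Across lungs, the genes did not vary as 1 group. After group means were removed, the brightest probes of KDR and TEK correlated at 0.79, KDR and FLT1 at 0.39, and DLL4 with KDR, FLT1 and TEK at 0.01, -0.52 and 0.26. VEGFA correlated at 0.81 with FLT1 at its brightest probe, and at 0.81 to 0.95 with the VEGFR-2 pair of KDR. With the tag pair of KDR its correlations were 0.17 to 0.32. The endothelial markers PECAM1 and TIE1 correlated with KDR at 0.57 and 0.05, and with DLL4 at -0.27 and 0.52.

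The named genes most like each of the 4, among 708 by the same correlation over 8 lungs, were as follows. For KDR they were CD80 (0.92), a costimulatory protein of antigen-presenting cells, the flagellin receptor TLR5 (0.91) and the caveolar protein CAV1 (0.89). For FLT1 they were FST (0.92), which encodes follistatin, UBQLN1 (0.89) and LOC780455 (0.88). For TEK they were the smooth muscle protein CNN1 (0.93), CD80 (0.88) and the protein disulfide isomerase PDIA4 (0.87). For DLL4 they were CREM (0.92), a modulator of cAMP-responsive transcription, EM4C (0.89) and prolactin, PRL (0.84). With 8 lungs and 708 genes these are descriptions of rank.

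Among the other ligands and receptors of these routes, 6 of 13 listed genes were tested, VEGFA and ANGPT2 among them, with 3 higher and 3 lower and none past the threshold. NRP1, a co-receptor for VEGFA, differed by 0.00 ± 0.14, and NRP2 by -0.08 ± 0.29. ANGPT1, the activating ligand of TEK, differed by 0.03 ± 0.19, and TIE1, its partner receptor, by 0.15 ± 0.28. Of 24 listed Notch genes 2 were tested. JAG1, a ligand that competes with DLL4, differed by -0.09 ± 0.14 at its brightest probe and by 0.09 ± 0.23 and 0.04 ± 0.17 at its other probes. A probe described as like NOTCH1 differed by 0.26 ± 0.29, so the receptor side of DLL4 signalling was measured by 1 gene.

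Of 57 listed endothelial genes 10 were tested, with 5 higher and 5 lower, and 1 had an unadjusted p under 0.05. This was AQP1, a water channel of endothelium, which read -0.99, -0.53, -0.67 and -0.86 after aldosterone and -1.01, -1.49, -1.23 and -1.55 in controls. The groups did not overlap, with -0.99 and -1.01 the nearest values, and the difference was 0.55 ± 0.17 (limma unadjusted p = 0.0103, adjusted p = 1.0). CD93, a receptor of endothelium and myeloid cells, differed by 0.36 ± 0.27 with overlapping groups, and was higher in 4 of 4 pairs, by 0.24, 0.31, 0.20 and 0.69. In the fit blocked by replicate its unadjusted limma p was 0.0313 against 0.219 without, and that of AQP1 was 0.0185, both with an adjusted p of 0.878. NOS3, the endothelial nitric oxide synthase, differed by 0.18 ± 0.27, and CAV1 by -0.09 ± 0.17.

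The VEGF signalling and hypoxia list had 9 of 36 genes tested, with 4 higher and 5 lower. PTGS2, the inducible cyclooxygenase, differed by -0.76 ± 0.41, with the control lung of replicate 4 at 1.73 and the other controls at -0.32 to 0.11. HIF1A, the oxygen-regulated transcription factor that induces VEGFA, differed by -0.35 ± 0.24 and was lower in 4 of 4 pairs, as were 5.64% of the tested probes. The adaptor NCK1 differed by -0.19 ± 0.16 and the growth factor FGF2 by -0.13 ± 0.21. Over these 4 lists, 27 of 130 genes were tested, 13 higher and 14 lower, with a median of 0.00 and none past the adjusted threshold. This count moved with the settings: 20 were higher without aldosterone replicate 2, 9 without aldosterone replicate 4, and 7 in the authors' deposited table.

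**Figure D4:**
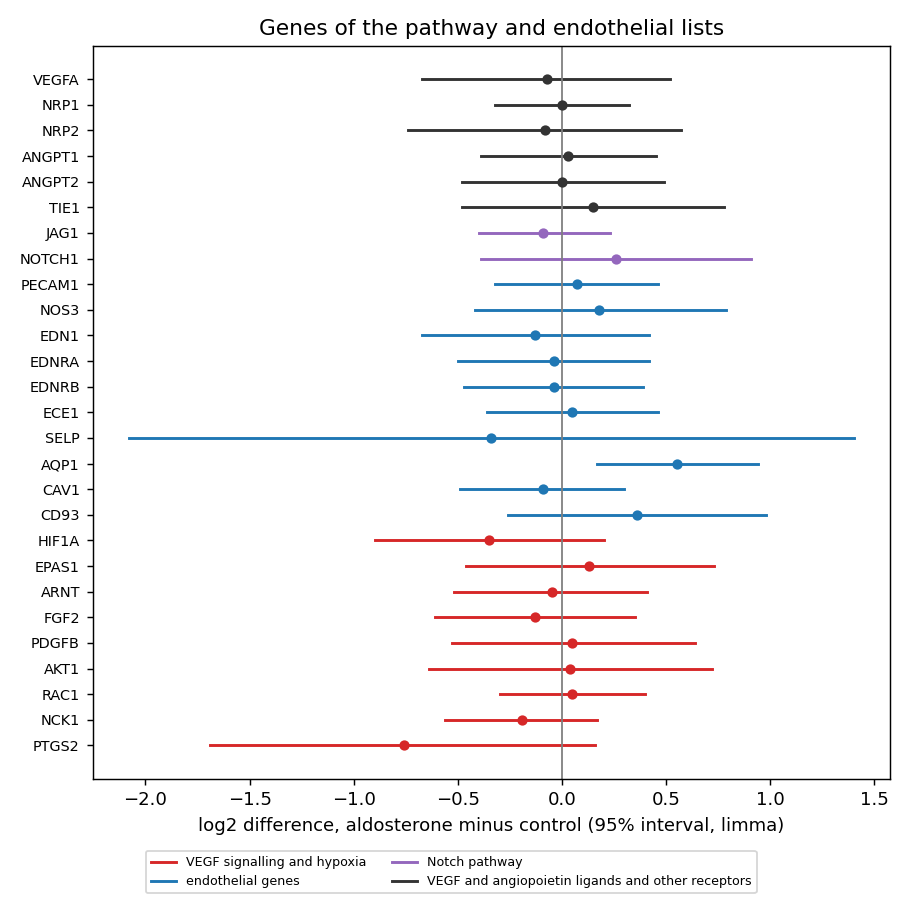
Difference in log2 signal, aldosterone minus control, with 95% interval (limma, n = 4 per group), for the 27 tested genes of the pathway and endothelial lists at their brightest probe. The values lie on both sides of 0, and AQP1, at 0.55, is the only one whose interval does not include 0.

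**Figure D5:**
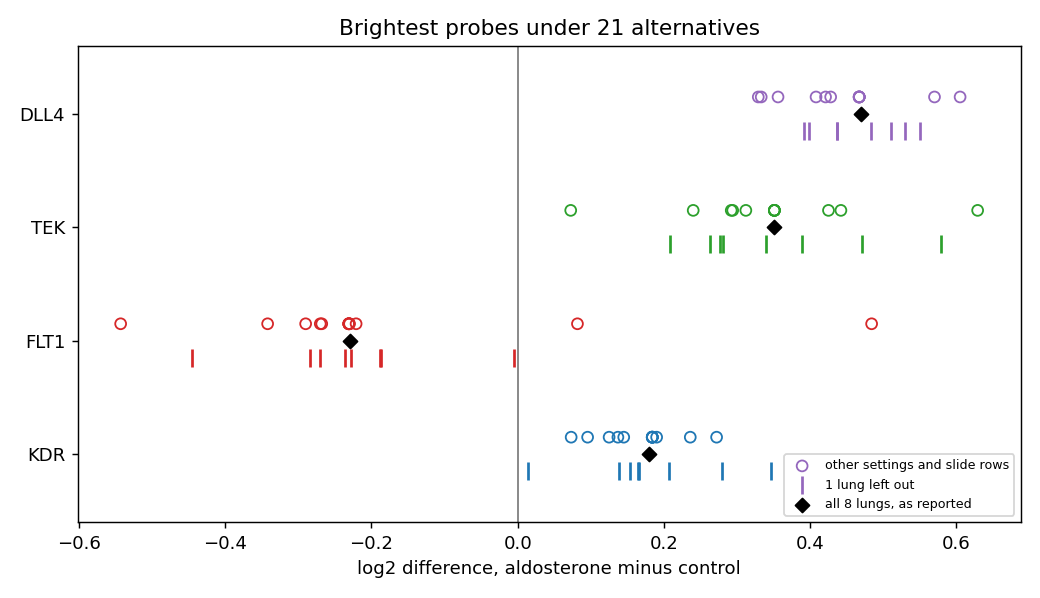
Difference of the brightest probe of each gene with all 8 lungs (diamond), under other settings and within slide rows (circles), and with 1 lung left out (ticks). DLL4 stays between 0.329 and 0.605, and FLT1 lies on both sides of 0.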

How the data were processed

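Lung RNA of 8 fetuses was labelled with Cy3 and hybridised to 1-colour Agilent sheep arrays on 1 slide. The authors deposited spot intensity (linear), made with Agilent Feature Extraction 10.1.1.1 per the submitters' processing notes, and a table of log2 values, which matched the log2 intensity less a constant per array.

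Here log2 processed signal less each array's 75th percentile was used. A set of 74 outlier spots was left out, and 12170 probes clearly above background on 4 or more arrays were kept. Groups were compared in limma 3.58.1 (R 4.3.3) by a two-sided test, with p-values adjusted by Benjamini-Hochberg across the kept probes. On simulated data the fit recovered 54% of log2 changes of 1 and 86% of those of 2, with 100 probes changed at each size. Noise was drawn independently for each probe and lung, and smaller changes, such as those of the members, were not simulated. The planted changes shared 1 adjustment, which eases the threshold for each of them, and a lone change was not simulated. Names came from the array files and a RefSeq table of ARS-UI_Ramb_v3.0. The brightest probe stood for a gene, and in 82 of 338 genes with several probes the signs differed.

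Same-numbered lungs correlated at 0.4457, 0.2754, 0.2805 and 0.5381 after group means were removed, against -0.449 to 0.2035 for different numbers. With the twin design of the labels, the numbers were taken to pair the lungs. Same-numbered lungs also lay side by side in the same slide row, so twin origin and slide position cannot be told apart here. The reported standard errors, intervals and permutation tests leave the pairs out, and blocking by replicate was an alternative. Named genes were all probes of the members, the measured ligands, receptors and Notch genes, the 4 smallest p of the other pathway lists and the 3 genes most correlated with each member; cell type markers are given as counts. Members and lists were chosen with earlier results of these data known, the DLL4 difference among them.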

Additional observations from a re-analysis of the deposited data

Results flagged for a closer look

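Among 80 groups of 4 lungs, from 40 probes, 6 held a lung far from the other 3, or 7.5%; chance gives about 1 in 20. For KDR, A_70_P041632 read -1.47 in aldosterone replicate 1, above the other lungs of its group at -2.53 to -2.36. For TEK, A_70_P049686 read -2.01 in control replicate 2, above -4.95 to -4.65. For ANGPT2, A_70_P002906 read -1.64 in aldosterone replicate 2, below -0.97 to -0.83. For TIE1, the other receptor of the TEK family, control replicate 4 read -2.03, below -0.99 to -0.85, and for EDNRB, an endothelin receptor, aldosterone replicate 2 read -2.16, below -1.48 to -1.40. For SELP, which encodes P-selectin, control replicate 4 read -0.48, above -4.43 to -3.90.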

How the results depend on the processing

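The DLL4 difference was above 0 under all 21 alternatives, from 0.329 to 0.605, with an unadjusted limma p of 0.00874 to 0.0706. Leaving out 1 lung or taking 1 slide row could not turn its sign, because the groups do not overlap. The blocked fits and the changed filters give the same difference as the main fit, 0.467, by construction. The unadjusted p of DLL4 was lowest under normexp, where 98.3% of the probes with an unadjusted p under 0.05 were higher. It was highest when arrays were centred on PECAM1 and TIE1, a setting added after the data were seen. KDR and TEK at their brightest probes kept their direction but not their size, from 0.0147 to 0.347 and from 0.0725 to 0.629, and the mean over probes gave 0.0475 and 0.105. No probe passed the adjusted threshold in any setting, and 143 to 1202 had an unadjusted p under 0.05. Pairing by replicate number as a block changed no call; it gave 539 probes with an unadjusted p under 0.05 and an adjusted p of 0.878 for DLL4 in limma.

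Under normexp, which shifted the median of all probes by 0.16, the VEGFR-2 pair of KDR turned to 0.399 and 0.329, FLT1 A_70_P026322 to 0.765 and A_70_P026631 to 0.484, and TEK A_70_P049686 to 0.198. In the authors' table FLT1 A_70_P026322 turned to 0.0624 and A_70_P026602 to -0.0287. A_70_P026602 was -0.00896 centred on the median and -0.0806 centred on PECAM1 and TIE1, which shifted the median of all probes by -0.11. ANGPT2 A_70_P002906 turned to -0.0307 (quantile), -0.0357 (median), -0.0555 (authors' table) and -0.107 (PECAM1 and TIE1), and A_70_P002907 to -0.0337, -0.0282, -0.048 and -0.0998. FLT1 A_70_P026631 was 0.0817 and -0.543 in the 2 slide rows. The pathway lists had 7 genes higher in the authors' table against 13. The authors' table shifted the median of all probes by -0.06 and centring on the median by -0.04. These 2 settings and the centring on PECAM1 and TIE1 differ from the main scale by a constant per array. Such a constant moves the difference of every probe measured on all arrays by the same amount. Beyond that, the cause of these turns was not tested.

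Leaving out 1 lung gave -0.233 to 0.102 and -0.254 to 0.0297 for the VEGFR-2 pair, -0.102 to 0.30 for KDR A_70_P041632, -0.56 to 0.114 for FLT1 A_70_P026322, -0.152 to 0.266 for A_70_P026602, -0.675 to 0.305 for TEK A_70_P049686, -0.081 to 0.187 and -0.068 to 0.178 for ANGPT2, -0.257 to 0.0567 and -0.277 to 0.0699 for VEGFA, and 9 to 20 higher genes in the lists. Of the unadjusted calls, 68.0% were higher with the 75th percentile, 52.5% centred on the median, 42.2% in the authors' table, 15.7% centred on PECAM1 and TIE1 and 98.3% under normexp. The number of arrays limits precision, and FLT1 A_70_P026321, A_70_P026322, A_70_P026601 and A_70_P026602 were not above background on every array.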
